A study of Mus musculus with 6 samples.

Results

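The cytosolic ribosomal protein genes and their paralogues comprised 84 of the 52999 gene symbols listed in the files. A symbol was a member when it had a protein_coding transcript and a ribosomal protein name of the pattern Rps or Rpl with a number, or was Rpsa, Rplp0, Rplp1 or Rplp2, and the ribosomal S6 kinases were left out. The members fell into 31 canonical genes of the small subunit, 46 of the large subunit and 7 paralogues (Rpl3l, Rpl7l1, Rpl10l, Rpl22l1, Rpl36al, Rpl39l and Rps27l), which are separate genes that encode variants of a canonical protein. Each library was made from left sciatic nerve cut through at mid-thigh (axotomy), of which the proximal stump, still joined to the dorsal root ganglia, was taken 24 h later. All mice were of the strain C57BL/6 (C57BL6/J in the protocol), 6 to 8 weeks old and axotomized. The groups were 3 male and 3 female libraries, each a pool of nerves from 2 mice, and the question was which transcripts differed between the sexes in the injured nerve. Uninjured nerve was not analysed here, and the values compare sexes after injury, not injury with its absence.

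The cytosolic ribosome joins a small subunit, which decodes the messenger RNA, and a large subunit, which forms the peptide bond. Each canonical protein is needed in about equal copy number in the particle, the stalk proteins apart, and its messenger RNA usually begins with a run of pyrimidines, the 5′ terminal oligopyrimidine (TOP) motif, through which mTOR signaling controls translation. In a cut nerve, local protein synthesis in axons and the reprogramming of Schwann cells both draw on ribosomes. Mammalian genomes also hold many copies of these genes that arose by reverse transcription, and short reads from a copy and its parent can be hard to assign.

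Sequences of the members on which the results turned are given first, because reads were shared between genes on the basis of these letters. The coding sequences come from GENCODE M39 transcripts on GRCm39, without the stop codon, 5′ to 3′. Rps27 (chromosome 3, 90119819 to 90120977, minus strand) encodes a zinc-binding protein of the small subunit, Rps27l (chromosome 9, 66853340 to 66856808, plus strand) is its paralogue, and Rps27rt (chromosome 9, 114811434 to 114811807, minus strand) is an intronless copy typed protein_coding. In the first pair of sequences capitals mark the 60 of 252 bases at which Rps27 and Rps27l differ. The stretch of Rps27rt that matched Rps27 differed from it at 0 of 252 bases and so has no capitals.
Rps27: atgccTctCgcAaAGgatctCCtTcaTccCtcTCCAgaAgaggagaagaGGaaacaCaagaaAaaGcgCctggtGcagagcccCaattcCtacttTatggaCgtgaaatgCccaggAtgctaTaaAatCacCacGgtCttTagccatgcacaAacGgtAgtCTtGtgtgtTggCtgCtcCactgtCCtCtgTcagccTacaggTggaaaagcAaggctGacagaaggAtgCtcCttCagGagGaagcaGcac
Rps27l: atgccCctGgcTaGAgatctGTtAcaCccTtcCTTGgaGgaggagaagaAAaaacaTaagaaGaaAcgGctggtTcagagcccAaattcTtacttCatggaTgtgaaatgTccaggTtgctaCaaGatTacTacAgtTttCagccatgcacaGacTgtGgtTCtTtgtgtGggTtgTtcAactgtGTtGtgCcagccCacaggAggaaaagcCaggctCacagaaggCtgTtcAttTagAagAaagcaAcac
Rps27rt: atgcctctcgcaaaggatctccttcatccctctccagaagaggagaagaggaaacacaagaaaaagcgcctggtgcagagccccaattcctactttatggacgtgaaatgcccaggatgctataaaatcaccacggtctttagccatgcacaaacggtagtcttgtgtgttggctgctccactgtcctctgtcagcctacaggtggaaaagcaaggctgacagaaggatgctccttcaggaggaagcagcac

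Rpl39 (chromosome X) encodes a very small protein at the exit tunnel of the large subunit, and Rpl39l (chromosome 16, 9949671 to 9992780, plus strand) is a paralogue best known from the testis. Their coding sequences had the same length, and capitals mark the 23 of 153 bases at which they differed.
Rpl39: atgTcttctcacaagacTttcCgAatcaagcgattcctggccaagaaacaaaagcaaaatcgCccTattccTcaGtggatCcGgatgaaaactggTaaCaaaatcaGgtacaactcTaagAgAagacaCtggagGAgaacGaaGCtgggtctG
Rpl39l: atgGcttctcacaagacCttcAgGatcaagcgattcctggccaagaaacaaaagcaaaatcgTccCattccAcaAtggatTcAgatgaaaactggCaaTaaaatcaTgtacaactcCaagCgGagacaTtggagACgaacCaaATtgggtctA

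For Rpl12, Rpl5 and Rpl10 the whole coding sequence (495, 891 and 642 bases) was contained without a mismatch in a transcript of another gene, Gm10275, Gm15500 and Rpl10-ps3. The first 60 coding bases of each are shown to make the identity visible. The Gm10275 and Gm15500 transcripts that held the reads stand in GENCODE M39 as newer versions under other gene names (657 bases there against 635 in the files, and 1020 against 1019).
Rpl12 and Gm10275: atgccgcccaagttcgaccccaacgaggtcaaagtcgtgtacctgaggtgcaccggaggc
Rpl5 and Gm15500: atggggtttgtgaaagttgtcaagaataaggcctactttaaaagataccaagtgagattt
Rpl10 and Rpl10-ps3: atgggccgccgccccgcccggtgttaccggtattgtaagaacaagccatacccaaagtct

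Canonical ribosomal protein genes were among the abundant transcripts of the stump. The 84 members took 10.6%, 11.6% and 9.27% of all TPM (the deposited abundance, corrected for transcript length) in males 1, 2 and 3, against 12.3%, 11.1% and 12.0% in females 1, 2 and 3. The mean share was 10.5% ± 1.17 in males and 11.8% ± 0.625 in females (SD, n = 3 each), a difference of -1.30 percentage points. The shares overlapped, since male 2 was above female 2. The small subunit genes held 4.58% ± 0.526 of TPM in males and 5.25% ± 0.264 in females, and the large subunit genes held 5.75% ± 0.630 in males and 6.37% ± 0.369 in females (SD, n = 3 each). Without male 3 the difference in the share of all members was -0.70 points.

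The level of single canonical genes spanned an 86.6-fold range in mean TPM over the 6 libraries, around a median of 1242 TPM, with quartiles of 940.3 and 1664 TPM. Rplp1, which encodes an acidic protein of the P-stalk that recruits elongation factors, stood highest, with 5417, 5477 and 4227 TPM in males and 5466, 4893 and 6210 TPM in females. Rps29, a zinc-binding protein of the small subunit, followed, with 4463, 4671 and 3485 TPM in males and 4958, 4347 and 4115 TPM in females. The next in mean TPM were Rpl13a (3092), Rpl41 (2751), Rps12 (2575), Rps24 (2405), Rpl23a (2320), Rps21 (2225), Rpl38 (2208) and Rpl32 (2147). From Rpl41 down, neighbours in this order differed by less than the SD of either over the libraries, whereas Rplp1 stood above Rps29, and Rps29 above Rpl13a, in all 6 libraries. The small subunit genes had a median of 1407 TPM and the large subunit genes one of 1134 TPM.

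At the low end stood Rpl12, a protein near the base of the P-stalk, with 54.1, 70.2 and 47.5 TPM in males and 65.3, 63.0 and 65.8 TPM in females. Rpl5, which binds the 5S ribosomal RNA together with Rpl11, had 65.3, 78.9 and 68.9 TPM in males and 90.4, 80.0 and 75.2 TPM in females. The third lowest, Rpl27a, had a mean of 455.7 TPM, so that these 2 genes were set apart from all others. The reads of both lay mostly on the copies shown above. Gm10275 alone had 1515, 1689 and 1357 TPM in males and 1893, 1720 and 2157 TPM in females, and Gm15500 had 937.8, 983.9 and 906.6 TPM in males and 1219, 1083 and 1068 TPM in females.

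Near-identical copies were searched for every member (at least 90% identity over at least 50% of both the copy and the coding sequence), and 75 members had 1 or more, with 637 copy symbols in all. Most copies held few reads: for 61 of 77 canonical members they carried under 1% of the summed estimated counts of member and copies. For 15 members they carried over 5%, and for 3 over 50%: Rpl12 (93.2%), Rpl5 (89.8%) and Rpl10 (67.5%). Rpl27a (47.7%), Rps27 (45.5%) and Rps23 (33.2%) came next. With the copies added, Rpl12 had a mean of 1786 TPM, Rpl5 one of 1110 TPM and Rpl10 one of 2265 TPM against 708.9 TPM from its own transcripts. The range over the canonical genes then narrowed to 6.67-fold, with Rpl14 lowest at 792.4 TPM. Because the letters are identical over the coding sequence, the split of reads between a member and such a copy rests on bases outside it and on the model that Salmon, the quantification program, uses.

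**Figure D1:**
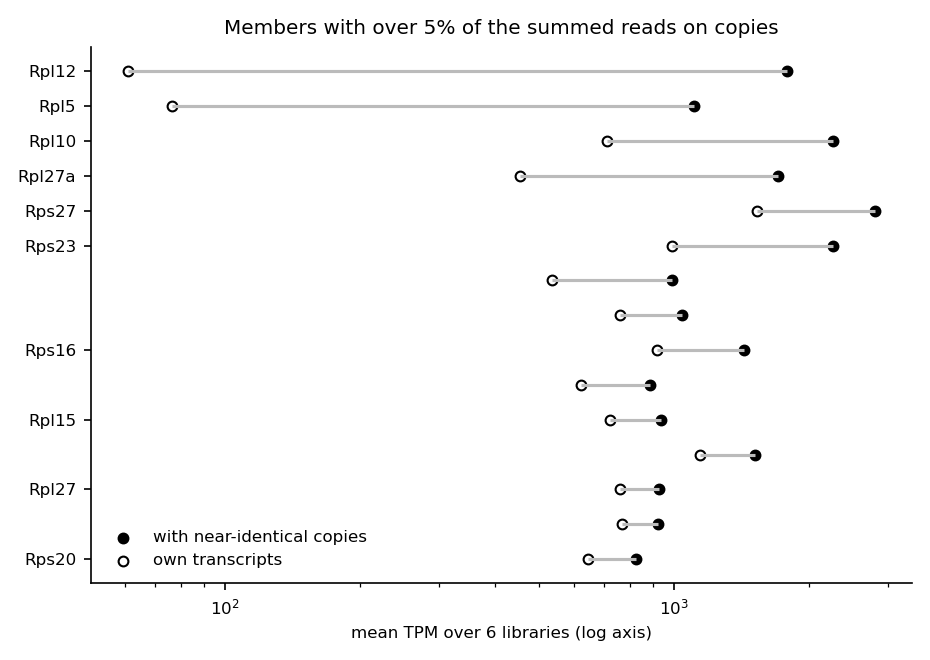
Mean TPM over the 6 libraries (log axis) of the 15 members for which copies carried over 5% of the summed reads, from their own transcripts (open circles) and with near-identical copies added (filled circles), with labels for genes named in the text. Rpl12 and Rpl5 stood at 61.0 and 76.4 TPM alone and at 1786 and 1110 TPM with copies.

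Between the sexes, no canonical gene passed the threshold (adjusted p under 0.1, edgeR's quasi-likelihood test over 18396 symbols), and all 77 had a negative log2 fold change (male minus female). Their median was -0.20, with a range of -0.55 to -0.0055, while the median of all symbols tested was -0.03. Of the 83 members tested, 0 were called lower and 0 higher in males, against 1.46% and 3.84% of all symbols tested. At an unadjusted p under 0.05 there were 2 members lower (Rps27 and Rps2) and 1 higher (Rpl39l), where the background was 9.69% lower and 11% higher. DESeq2's Wald test called 2 members lower in males (Rps27 and Rps2), where it called 5.59% of all symbols lower and 7.67% higher, and limma-voom called 0. The canonical genes thus lay on the same side of 0 by small amounts: 58 of the 77 canonical genes were more than 1 SE below 0, and 11 more than 2 SE, with a median SE of 0.15. Ribosomal protein genes vary together across libraries, so that the 77 values are not independent of each other. In whole tissue, fewer cells of a type and less RNA per cell cannot be told apart.

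**Figure D2:**
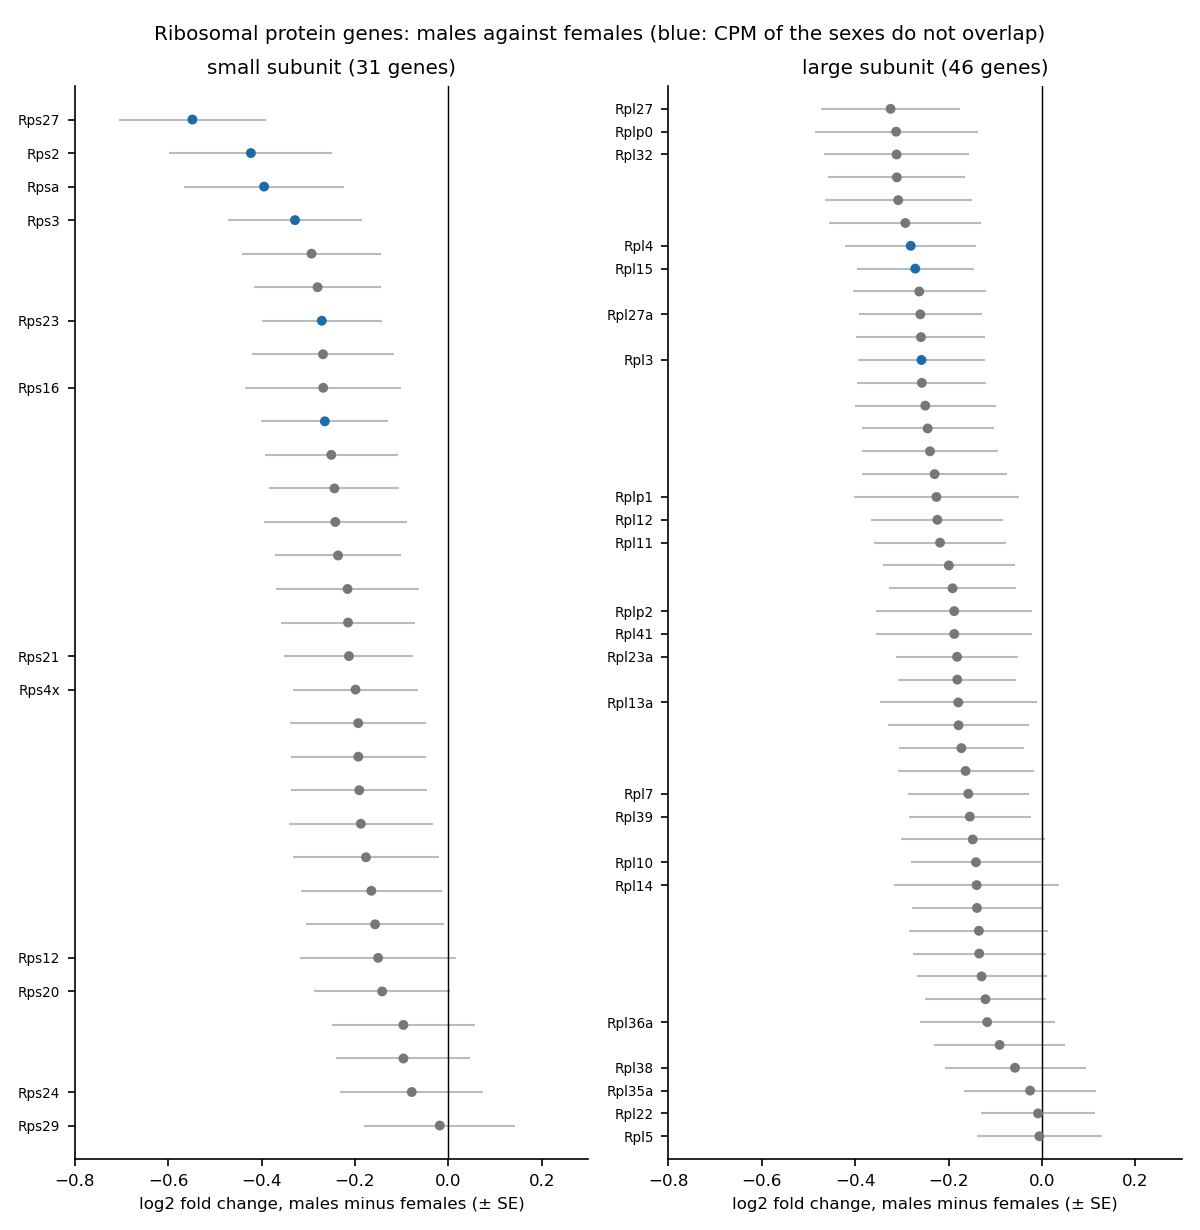
Log2 fold change, males minus females, with its SE for the 31 small subunit and 46 large subunit genes, each sorted by value, with labels for genes named in the text. Blue points are the 9 genes whose CPM did not overlap between the sexes, and all 77 points lie below 0, from -0.55 (Rps27) to -0.0055 (Rpl5).

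A few libraries set most of the extremes. On CPM, the counts scaled by TMM-normalised library size, male 3 was the lowest library for 72 of 77 canonical genes, and female 3 or female 1 was the highest for 41 and 30 of them. The median over the canonical genes was 447.6, 496.8 and 400.1 CPM in males 1, 2 and 3, and 542.4, 451.9 and 563.0 CPM in females 1, 2 and 3. Male 2 was above female 2 in this median, and the spread within a sex (median CV 11.5% in males and 10.8% in females) was of the size of the difference between them. Without male 3 the median log2 fold change was -0.13 with 70 of 77 genes negative, and without female 2 it was -0.29 with 77 of 77 negative.

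**Figure D3:**
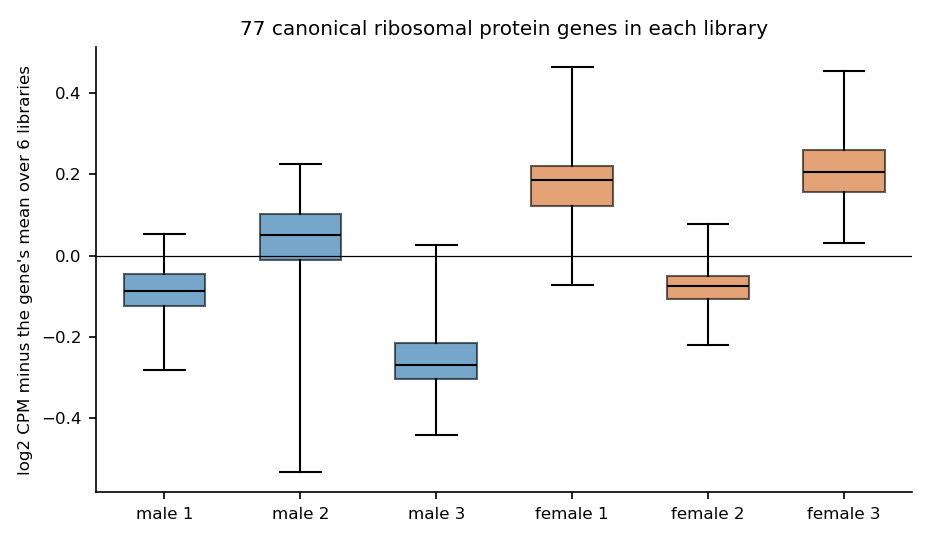
Log2 CPM of each of the 77 canonical genes minus that gene's mean over the 6 libraries, by library (box: quartiles and median, whiskers: lowest and highest gene; males blue, females orange). Male 3 was the lowest library for 72 genes, and female 2 lay below the mean with males 1 and 3.

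For 9 members all 3 males lay below all 3 females in CPM (among them Rps27, Rps2, Rpsa, Rps3, Rps23, Rpl3, Rpl4 and Rpl15), and for 0 members above them. The background of such patterns was 11.6% and 13.9% of all symbols tested, and 9 of the 83 members tested is a share close to the background for lower in males. On TPM 26 of the 77 canonical genes had all males below all females and 0 had them above, against backgrounds of 7.62% and 13.4%. A fit with transcript length as an offset, the count model nearest to TPM, gave a median of -0.15 with 70 of 77 genes negative.

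Among small subunit genes, Rps27 had the smallest adjusted p of all members. Its level was 182.2, 131.2 and 161.3 CPM in males, against 262.0, 200.3 and 231.7 CPM in females. All males lay below all females, and the log2 fold change was -0.55 ± 0.16 (edgeR, adjusted p = 0.117). The identical copy Rps27rt had the opposite order, with 180.5, 284.9 and 141.3 CPM in males and 117.4, 117.1 and 129.2 CPM in females, and a log2 fold change of 0.74 ± 0.24 (edgeR, adjusted p = 0.146). Summed with its copies, Rps27 had 362.6, 416.2 and 302.7 CPM in males and 379.3, 317.4 and 361.0 CPM in females. The groups then overlapped and the log2 fold change was 0.03 ± 0.15 (edgeR, adjusted p = 0.924), a sum chosen after the data were seen. Copies carried 49.8%, 68.5% and 46.7% of the summed reads of Rps27 in males, against 30.9%, 36.9% and 35.8% in females. Whether transcription of the copy or the assignment of reads differed was not tested.

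**Figure D4:**
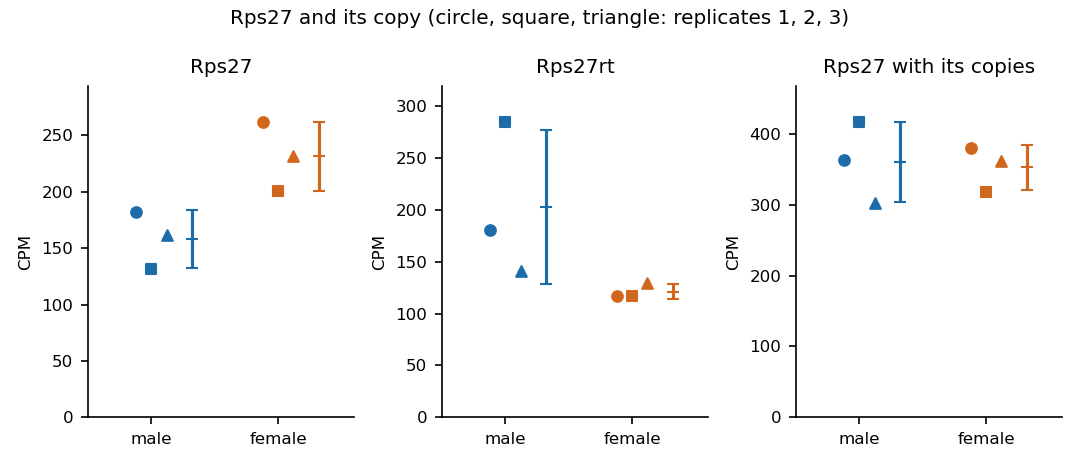
CPM of Rps27, of its intronless copy Rps27rt and of Rps27 with its copies, per library (males blue, left; females orange, right; bars: mean ± SD, n = 3). The males lay below the females for Rps27 and above them for Rps27rt, and the sums overlapped.

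Rps2, a protein at the entry of the messenger RNA channel, had 1037, 1078 and 938.2 CPM in males, against 1377, 1112 and 1604 CPM in females. The highest male stood just under the lowest female, and the log2 fold change was -0.42 ± 0.17 (edgeR, adjusted p = 0.226). Rps3, at the same channel and also known for DNA repair functions, had 724.5, 710.7 and 607.2 CPM in males, against 894.2, 760.0 and 910.2 CPM in females, with a log2 fold change of -0.33 ± 0.14 (edgeR, adjusted p = 0.248). Rps23, at the decoding center, had a log2 fold change of -0.27. With its copies, Rps23 had 613.7, 660.4 and 524.2 CPM in males and 744.7, 621.3 and 709.5 CPM in females. These sums overlapped between the sexes, with a log2 fold change of -0.21 ± 0.14 (edgeR, adjusted p = 0.450). At the other end of the small subunit, Rps29 had -0.02 and Rps24 -0.08. Rps20 had -0.14 and Rps12 -0.15, and in all 4 genes the groups overlapped.

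For Rpsa, also known as the laminin receptor, and for Rps16 the transcript type mattered. Rpsa had 1126, 1198 and 950.9 CPM in males and 1465, 1224 and 1616 CPM in females from all transcripts, with a log2 fold change of -0.39 ± 0.17 (edgeR, adjusted p = 0.243). Of its reads 59.0% lay on transcripts not typed protein_coding, nearly all of them nonsense_mediated_decay, the largest such share among the members. The protein_coding transcripts held 40.4%, 31.2% and 36.2% of its reads in males, against 45.8%, 44.3% and 44.4% in females. Rps16 had 54.8%, 37.8% and 49.4% of its reads on protein_coding transcripts in males, against 72.2%, 69.7% and 59.2% in females, the rest being on a retained_intron type. In both genes all males lay below all females in this share. The split of reads between transcripts of 1 gene also rests on the model that Salmon uses. Summing only protein_coding transcripts, both were called lower in males by edgeR, Rpsa with a log2 fold change of -0.69 (adjusted p = 0.0770) and Rps16 with -0.74 (adjusted p = 0.0782), against -0.27 (adjusted p = 0.397) for Rps16 from all transcripts. In that fit 1.81% of the 14986 symbols tested were called lower and 4.75% higher in males, and these 2 were the only members called. Near-identical copies carried 20.3% of the summed reads of Rps16. With them its log2 fold change from all transcripts was -0.23 ± 0.17 (edgeR, adjusted p = 0.456). The fit of protein_coding transcripts was not repeated with copies. Rpl12 (57.4%) and Rps20 (36.6%) also had large shares outside protein_coding types, and these overlapped between the sexes.

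In the large subunit the smallest adjusted p was 0.268, for Rpl27, which had 236.1, 241.6 and 186.3 CPM in males and 297.4, 236.7 and 297.1 CPM in females (log2 fold change -0.32 ± 0.15). Here male 2 lay above female 2. With its copies, which carried 11.6% of the summed reads, Rpl27 had a log2 fold change of -0.21 ± 0.15 (edgeR, adjusted p = 0.470). Rpl3, which reaches toward the peptidyl transferase center, had 862.3, 912.9 and 832.6 CPM in males, against 1110, 936.2 and 1072 CPM in females (log2 fold change -0.26 ± 0.14, edgeR, adjusted p = 0.327). Rpl4, which lines the exit tunnel, had 1001, 1071 and 961.7 CPM in males, against 1292, 1113 and 1280 CPM in females (log2 fold change -0.28 ± 0.14, edgeR, adjusted p = 0.301). Rpl15 had a log2 fold change of -0.27. For these 3 genes the highest male, male 2, stood just below the lowest female, female 2. Rpl22 (-0.0084), Rpl35a (-0.03) and Rpl38 (-0.06) lay nearest to 0 beside Rpl5, and the sign of these 4 genes turned when single libraries were left out.

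The genes of the P-stalk, Rplp0, Rplp1 and Rplp2, had log2 fold changes of -0.31, -0.23 and -0.19. In the 5S particle, Rpl11 had -0.22 and Rpl5 -0.0055 from own transcripts, and Rpl5 had -0.17 with its copies. Rpl5 and Rpl11 outside the ribosome are known to bind Mdm2 and so to stabilise p53. Rpl12 had -0.22 from own transcripts and -0.40 ± 0.16 with its copies (edgeR, adjusted p = 0.221), and its copy Gm10275 alone had -0.41. The X-linked genes Rpl10, Rpl36a, Rpl39 and Rps4x had log2 fold changes of -0.14, -0.12, -0.15 and -0.20, around a median of -0.15 against -0.20 for all canonical genes. With its copies, which held most of its reads, Rpl10 had -0.23 ± 0.14 (edgeR, adjusted p = 0.394), and the X-linked median was then -0.18 against -0.19 for all canonical genes with copies. Rpl10, the last large subunit protein to be loaded before the particle can join, had 254.2, 317.8 and 314.5 CPM in males and 353.1, 286.6 and 338.0 CPM in females from own transcripts.

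Of the 7 paralogues, 0 were called by edgeR, DESeq2 or limma-voom, and at an unadjusted p under 0.05 the edgeR fit had 1, Rpl39l. Their levels differed widely. Rpl36al, an autosomal copy of the X-linked Rpl36a with 87.7% identity in the coding sequence, had 598.0, 757.4 and 522.7 TPM in males and 669.4, 639.8 and 693.8 TPM in females, and so took 34.8% ± 1.39 of the TPM of the pair in males and 33.1% ± 1.48 in females (SD, n = 3 each). Rpl22l1, whose product can replace Rpl22 and which had 68.2% identity with it, took 34.4% ± 1.5 of its pair in males and 35.1% ± 2.38 in females. The log2 fold change of Rpl22l1 was 0.07 ± 0.15, with overlapping groups on CPM, and that of Rpl22 was -0.0084 ± 0.12. On TPM the order was the other way, with 440.2, 440.3 and 397.5 TPM of Rpl22l1 in males, all below 484.1, 547.1 and 461.2 TPM in females. Rps27l, a target of p53 with 76.2% identity to Rps27, had 458.5, 476.1 and 384.4 TPM in males and 496.9, 504.6 and 493.8 TPM in females. Again all males lay below all females in TPM, whereas on CPM the groups overlapped and its log2 fold change was -0.11 ± 0.14.

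Rpl7l1, whose relative in yeast acts in ribosome assembly, had 54.0% identity to Rpl7. Its level was 42.7, 48.3 and 47.1 TPM in males and 69.6, 56.7 and 45.7 TPM in females, or 4.25% ± 0.315 of its pair in males and 4.50% ± 0.580 in females. Rpl39l had 0.28, 0.73 and 0.72 CPM in males, against 0.16, 0.39 and 0.19 CPM in females. Male 1 lay among the females, and the log2 fold change of 1.21 ± 0.52 did not pass (edgeR, adjusted p = 0.241). It took 0.224% ± 0.136 of the TPM of its pair in males and 0.0668% ± 0.0396 in females, so that Rpl39 supplied nearly all of it. Rpl10l, which replaces Rpl10 in spermatocytes, had 0, 5 and 4 estimated counts in males and 0, 0 and 0 in females and was not tested. The libraries in which Rpl39l and Rpl10l were highest, males 2 and 3, also held most reads on little-read copies: the 595 processed pseudogene copies of members with at most 200 estimated counts in every library, Rps3a3 apart, summed to 1276, 2362 and 2986 in males and to 842.2, 766.1 and 1052 in females. The limit of 200 was chosen after the data were seen, and what set these sums apart, and their part in Rpl39l and Rpl10l, was not tested.

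Rpl3l, which in mouse takes the place of Rpl3 in mature skeletal and cardiac muscle, had 0.0594, 0.177 and 3.30 CPM in males and 1.04, 1.99 and 0.398 CPM in females. The libraries high for Rpl3l, male 3 and females 1 and 2, were those with the highest summed TPM of 24 skeletal muscle markers: 35.9, 33.6 and 983.5 in males and 503.3, 816.2 and 63.4 in females. Of these markers 3 were at 0 in some library, and the part of muscle in the result was not tested. The log2 fold change of Rpl3l was 0.03 ± 1.22 and its sign turned with the method (-1.56 by limma-voom).

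**Figure D5:**
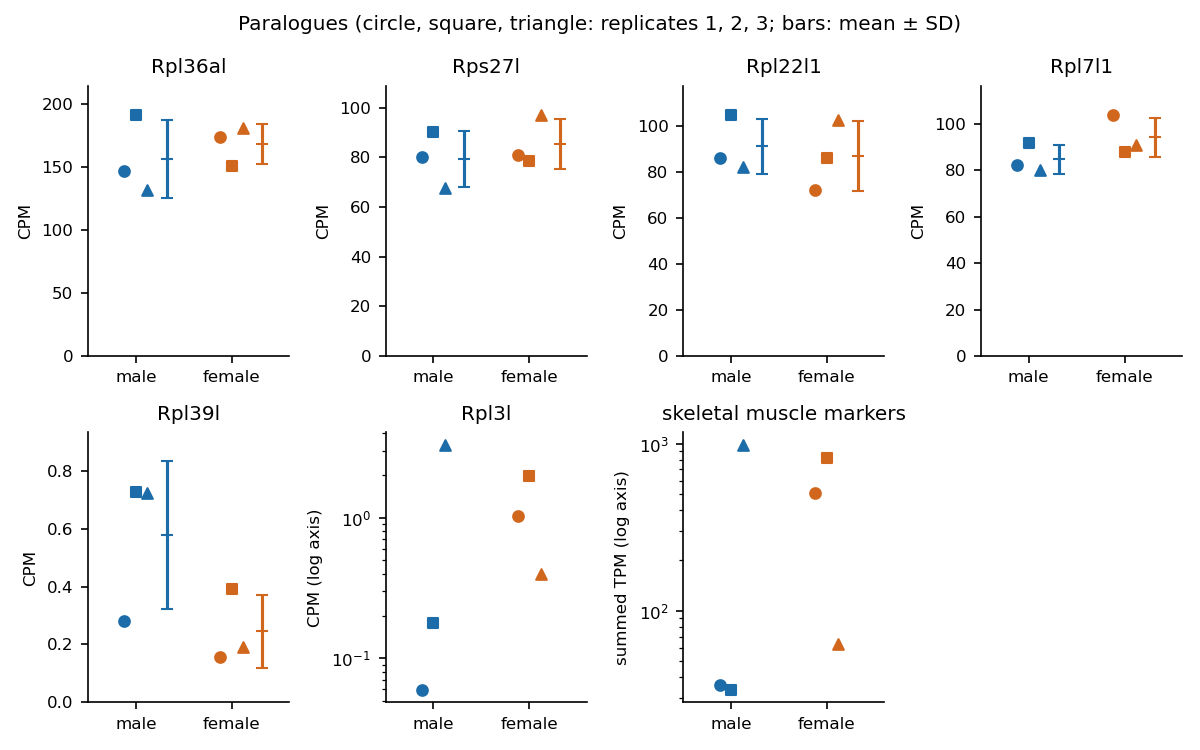
CPM of 6 paralogues and the summed TPM of 24 skeletal muscle markers per library (males blue, left; females orange, right; bars: mean ± SD, n = 3; Rpl3l and the muscle markers on a log axis without bars). Rpl3l and the muscle markers were both highest in male 3, at 3.30 CPM and 983.5 TPM, and lowest in males 1 and 2.

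Genes that build or use the ribosome gave a background for the members. Of 61 ribosome biogenesis genes, 55 had a negative log2 fold change (median -0.21). At an unadjusted p under 0.05 in edgeR, 20 of the 61 were lower and 1 higher in males. The background there was 9.69% lower and 11% higher. In CPM all males lay below all females for 17 of them and above for 1, against 11.6% and 13.9% of all symbols tested. At the adjusted threshold, 1 was called lower and 0 higher in males. The called gene was Ddx21, a nucleolar helicase, with a mean of 137.1 ± 11.0 CPM in males and 204.9 ± 24.3 CPM in females (SD, n = 3 each; log2 fold change -0.58 ± 0.12, edgeR, adjusted p = 0.0659). Of 39 translation initiation genes, 31 were negative (median -0.09), and Eif3a, the scaffold of an initiation factor complex, was called lower, with a mean of 234.4 ± 14.4 CPM in males and 336.2 ± 24.4 CPM in females (SD, n = 3 each; log2 fold change -0.52 ± 0.11, edgeR, adjusted p = 0.0675). At an unadjusted p under 0.05 in edgeR, 6 initiation genes were lower and 1 higher in males. The number of called genes fell to 0 in both lists when male 1, male 3, female 1 or female 2 was left out. In the initiation list it also fell to 0 without male 2. Without female 3, 4 biogenesis genes were called lower and 1 higher in males, and the initiation list split into 3 lower and 3 higher. DESeq2 called 4 lower and 1 higher in the biogenesis list, and 3 lower and 1 higher in the initiation list. With protein_coding transcripts only, 3 biogenesis and 2 initiation genes were called lower and 0 higher. Of 14 elongation and termination genes, 10 were negative (median -0.19) and 0 were called, with 2 at an unadjusted p under 0.05 in edgeR and 3 called lower by DESeq2. With the length offset, 3 biogenesis genes and 1 elongation and termination gene were called lower. Fau, whose product carries a ribosomal protein fused to a ubiquitin-like protein, had a log2 fold change of -0.13, and the ribosome scaffold Rack1 had one of -0.40. Of the 3 ribosome partner genes listed, these among them, 1 was lower at an unadjusted p under 0.05 in edgeR. DESeq2 called 1 of the 3 lower in males. The 78 mitochondrial ribosomal protein genes, which serve a separate ribosome, had a median of -0.03 with 49 negative, and 0 were called (1 higher and 0 lower at an unadjusted p under 0.05 in edgeR), with 2 called higher without female 3.

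Marker lists of other cell types moved with sex beside these values. The summed TPM of 20 Schwann cell markers was 44604 to 53831 in males and 20679 to 26903 in females, with 6 called higher in males and 0 at 0 counts in any library. Their median log2 fold change was 0.42, with 16 positive and 4 negative, and the sum weighs the most abundant markers most. The summed TPM of 12 central neuron markers was 47.6 to 65.2 in males and 27.9 to 33.7 in females. That of 10 oligodendrocyte markers was 395.2 to 439.7 in males and 274.4 to 328.1 in females, and neither overlapped. Of these markers, 8 central neuron and 4 oligodendrocyte markers were called higher in males and 0 lower. In some library 4 of the oligodendrocyte markers were at 0. Mag and Sox10 were in both the Schwann cell and the oligodendrocyte list, so these lists were not independent. The part of the shared genes in the oligodendrocyte sum was not tested. In the direction of the ribosomal protein genes, 4 of the 24 skeletal muscle markers and 1 of 10 endothelial markers were called lower in males and 0 higher. In lists without a call, 11 of 12 adipocyte, 10 of 12 macrophage and 8 of 8 tested neutrophil markers had a negative log2 fold change. So had 8 of 12 lymphocyte markers, whereas 9 of 12 fibroblast markers had a positive one. The summed TPM of the muscle, macrophage, neutrophil, fibroblast, endothelial, adipocyte and lymphocyte markers overlapped between the sexes. The part of cell makeup in the ribosomal protein values was not tested. Libraries held 51936195 to 69848769 estimated counts in males and 49158283 to 64802091 in females, and the least abundant canonical gene had at least 1873 counts in every library, so counting error was small against the spread between pools. Xist had 6 to 193 counts in males and 26310 to 40851 in females. The Y-linked Ddx3y had 2268 to 3743 in males and 0, 0 and 139 in females 1, 2 and 3. The main level of both followed the labelled sex. The source of the Ddx3y counts in female 3, and of the Xist counts in males, was not tested.

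What the canonical genes shared beyond their names was looked for in sequence. Across the 77 genes the log2 fold change went with the length of the coding sequence (Pearson r = -0.30, Spearman rho = -0.35), the longer genes being more negative; genes share libraries and are not independent replicates, and the values describe these libraries only. With the length offset rho was -0.33, and against mean TPM rho was 0.14. A run of C followed by at least 4 pyrimidines (C or T), on the gene's strand and within 10 bases of an annotated RefSeq start, was found for 31 of the 57 canonical genes with a promoter entry (54.4%), and for 29.9% of all 27025 genes with one. The windows below run from 10 bases before to 20 bases from the start on GRCm38.p6 (RefSeq), and capitals mark, over their whole length, the runs whose first 5 bases lie within 10 bases of the start. They are shown for the gene with the smallest adjusted p, for the lowest and a high canonical gene by TPM, and for the paralogues Rpl22l1 and Rpl3l. Rpl3l had no such run, and pyrimidines farther from the start, as in Rpl3l and Rpl12, are left in lower case.
Rps27 (chr3:90213629-90213658, minus strand): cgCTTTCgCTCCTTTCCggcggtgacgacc
Rpl12 (chr2:32961702-32961731, plus strand): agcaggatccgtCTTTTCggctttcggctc
Rpl13a (chr7:45128726-45128755, minus strand): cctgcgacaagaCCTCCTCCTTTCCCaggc
Rpl22l1 (chr3:28805498-28805527, plus strand): gcgcaagcccgttCTCTTCCCacggctgca
Rpl3l (chr17:24727816-24727845, plus strand): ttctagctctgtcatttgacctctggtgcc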

How the data were processed

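Poly-A RNA of proximal sciatic nerve stumps, pooled from 2 mice per library, was sequenced from 6 stranded libraries. The submitters' processing notes name Trimmomatic 0.39, Salmon 1.5.2 and MultiQC 1.9. The authors deposited, per transcript, Salmon's estimated counts, unnormalised and with fractions. The deposited TPM divide by effective length and sum to one constant per library. The methods name GENCODE M29 (GRCm39), and coordinates here are from M39 on that assembly, where 98.9% of gene identifiers were found.

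Estimated counts were summed per symbol over all transcripts and rounded. In R 4.3.3, edgeR 4.0.16 was used with filterByExpr, TMM factors and the quasi-likelihood F test, with sex as the only term and Benjamini-Hochberg adjustment over the 18396 symbols tested. CPM are on the TMM scale, and the threshold was an adjusted p under 0.1, as in the study. Of the members 83 passed the filter. P-values measure the spread between pools of 2 mice. Within each sex no library was a copy of another (chi-square per degree of freedom 48.7 to 146.7), and pairs across the sexes were not compared. Copies were found with BLAST 2.17.0, and paralogues were aligned globally with Biopython 1.88. The test was checked on simulated data.

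Alternatives were DESeq2 1.42.0 (size factors, Wald test), limma-voom (limma 3.58.1), library size alone, other filters, protein_coding transcripts only, named pseudogenes added, a length offset, an adjusted p under 0.05, the replicate number as a block and each library left out. The sum with near-identical copies was added after the data were seen. The members and lists were chosen with earlier results of these data known. Named are the paralogues with their parents, the 10 highest and 10 lowest canonical genes by TPM, the 5 largest and 5 smallest log2 fold changes, genes whose CPM do not overlap, X-linked, P-stalk and 5S genes, the 5 with most reads outside protein_coding types, and of other genes Fau, Rack1, called list genes and copies, the copies and Rpl14 chosen after their values were seen. Some genes that this rule gives are not reported here.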

Additional observations from a re-analysis of the deposited data

How the results depend on the processing

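The count of members called lower in males was 2 with DESeq2's Wald test (Rps27, Rps2), 1 without a filter on low counts (Rps27) and 2 with protein_coding transcripts only (Rpsa, Rps16), and 0 under every other alternative run, including each library left out. No alternative called a member higher in males. Over all symbols, 269 were called lower and 706 higher in males; DESeq2 gave 1029 and 1411, no filter 545 and 1069, protein_coding transcripts only 271 and 712, an adjusted p under 0.05 gave 33 and 246, and leaving out libraries gave 0 to 1263 lower and 1 to 1346 higher. The replicate numbers did not pair the libraries (correlations of same-numbered deviations -0.04, -0.30 and -0.30), and with the replicate block 8 symbols were lower and 48 higher, with 0 members called. The median of the canonical genes stayed negative, at -0.29 to -0.13 with libraries left out.

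The log2 fold changes of these named genes changed sign, some of them well away from 0 in the reported fit (Rps27 -0.55, Rpl28 -0.24, Rplp2 -0.19, Rpl13a -0.18 and Rps20 -0.14). Rpl3l was -0.025 with library size alone, -1.56 by limma-voom and -1.72 with the replicate block. Rpl5 was 0.0012 by limma-voom, and with a mean CPM of 1 or more Rpl5 was 0.018, Rpl22 0.015 and Rps29 0.0037. With protein_coding transcripts only, Rpl22 was 0.026, Rpl35a 0.0092, Rpl5 0.057 and Rps29 0.016. With the length offset, Rpl13a was 0.048, Rpl22l1 -0.18, Rpl28 0.20, Rplp2 0.055 and Rps20 0.11. With near-identical copies Rps27 was 0.032. Leaving out libraries gave ranges of -0.067 to 0.070 for Rpl22, -0.087 to 0.12 for Rpl5, -0.052 to 0.21 for Rpl22l1, -0.10 to 0.061 for Rpl35a, -0.24 to 0.0081 for Rpl36al, -0.17 to 0.032 for Rpl38, -3.27 to 0.71 for Rpl3l, -0.17 to 0.0071 for Rps24 and -0.10 to 0.11 for Rps29. The causes were not tested.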

Other observations

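The symbols that matched the name pattern without a protein_coding transcript numbered 6 and were no members (Rpl32l, Rpl6l, Rps12l1, Rps3a2, Rps3a3 and Rps4l). Rps3a3 had 13.3, 54.6 and 77.7 estimated counts in males and 2.23, 2.15 and 5.55 in females, with a log2 fold change of 3.89 ± 0.84 (edgeR, adjusted p = 0.0675). It is a near-identical copy of a member, and the pattern was not its own: the copy Gm5835 of Rpl4 had 17.1, 61.6 and 111.3 estimated counts in males and at most 1.01 in females, and the summed reads of the little-read processed pseudogene copies were highest in the same 2 libraries, males 3 and 2. The cause was not tested. Rps4l, an intronless relative of Rps4x, had 19.2 ± 0.375 CPM in males and 18.7 ± 1.55 CPM in females (SD, n = 3 each), with a log2 fold change of 0.04. The other 4 had at most 3.12 estimated counts in any library.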
